A study of Saccharomyces cerevisiae with 16 samples.

Results

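The mitochondrial ribosomal proteins of budding yeast (Saccharomyces cerevisiae) were followed across 16 libraries of polyadenylated RNA. Members were all genes whose standard name is MRPL, MRPS, MRP or RSM followed only by digits, which gave 66 of the 6692 genes in the count table. They comprised 34 MRPL, 9 MRPS, 12 MRP and 11 RSM genes. RefSeq lists 37 of them as proteins of the large mitochondrial ribosomal subunit and 27 as proteins of the small subunit, so the name of the group held for 64 members. RefSeq gives RSM22 as a tRNA methyltransferase but also places it in the small subunit. It describes MRP8 as a hypothetical protein once taken, from its sequence, for a mitochondrial ribosomal protein. All 66 members had enough reads to be tested, and the lowest count of any member in any library was 76.

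The study crossed a histone mutation with loss of frataxin, and each of its 4 groups held 4 libraries, numbered 2 to 5. Cells of the H113N YFH1-off group carried histone H3 with the H113N substitution, a histidine changed to asparagine, and had YFH1 placed behind the GAL1 promoter. Cells of the H113N group carried the H3 substitution alone. Cells of the WT YFH1-off group had normal H3 and YFH1 behind the GAL1 promoter, and cells of the WT group are labelled as wild type. The GAL1 promoter is silent on glucose, and every YFH1-off library came from cells with that promoter, so the shutoff and the change of promoter cannot be told apart. The protocol, worded for YFH1-off cells but attached to all samples, had cells taken off YPG and set to an OD600 of 1 in SC. They grew at 30 °C for 36 h with dilution every 12 h, and for 8 h more after a last dilution, 44 h in all. The title of the series names a cupric reductase activity of H3 and asks about the transcriptional response to loss of YFH1. The labels do not say that the libraries of a group came from separate cultures, so p-values measure the spread between these samples, which may be technical.

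Mitochondrial ribosomes translate the few messages of mitochondrial DNA, most of which encode membrane subunits of the respiratory chain and the ATP synthase. Apart from VAR1, a small-subunit protein encoded in mitochondrial DNA, their proteins are made in the cytosol from nuclear genes and imported. In yeast many of the nuclear messages are bound by Puf3, an RNA-binding protein that reads an 8-letter site after the coding sequence and promotes decay of the messages during growth on glucose. Genes of the respiratory chain are mostly controlled instead through promoters read by the Hap complex, whose limiting subunit is Hap4. YFH1 encodes yeast frataxin, a matrix protein of iron-sulfur cluster assembly.

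The letters of the Puf3 site, TGTANATA (N for any base), were searched on the sense strand in the 150 bases after each stop codon. They stood there in 64 of the 66 members, or 97.0%, against 690 of 5939 other genes, or 11.6%. The sites below belong to members whose values are given further on, some that fell with YFH1 shutoff and some that were not called. Each line gives 30 bases of the sense strand, 5′ to 3′, from the R64 (sacCer3) genome of RefSeq, with the 8 matching letters in capitals.
MRPL51 chrXVI:730250-730279 (plus strand): ataattatactTGTATATAtaatttggggc
MRPL50 chrXIV:669719-669748 (minus strand): gcgtacaatctTGTATATAggcaacatcgc
MRPL31 chrXI:185225-185254 (minus strand): aaaatttcatcTGTATATAgtttaatcatt
MRPS35 chrVII:830212-830241 (plus strand): ccattattactTGTACATAaaatattctac
MRPS8 chrXIII:572761-572790 (plus strand): tatacggaccaTGTAAATAataatattata
RSM28 chrIV:1438036-1438065 (plus strand): tcttacataccTGTAAATAtctagtacgta
MRPL27 chrII:768698-768727 (plus strand): ttcaatatgcgTGTAAATActagttttcga
MRPL13 chrXI:450358-450387 (minus strand): ttttaatatccTGTACATAtatatactctt
MRPL16 chrII:146900-146929 (plus strand): ccatgtatacaTGTATATAactattgaaaa
MRP17 chrXI:437038-437067 (minus strand): ctacaaacacaTGTAAATAcatacatatct
RSM18 chrV:253886-253915 (minus strand): atagttctgtcTGTAAATAtacaatatgta
MRPL4 chrXII:1015467-1015496 (plus strand): accctctctccTGTAAATAtatatatatat
MRP49 chrXI:133678-133707 (minus strand): aagtttgttcaTGTATATAtcaaaaaacat
MRPL51, MRPL50 and MRPL31, among the members with the largest falls in WT cells, carry TGTATATA, and so does MRP49, which was not called. MRPL4 carries the same TGTAAATA core as MRPS8 and RSM28, yet was not called in any comparison. MRP8 and RSM22 are the only members without these letters in this window, which says nothing of sites elsewhere. Over the 60 members whose site has 11 bases of window on both sides, the core was TGTAAATA in 30, TGTATATA in 18, TGTACATA in 11 and TGTAGATA in 1. A C stood 2 bases before the core in 44 of the 60 and 1 base before it in 24. The first site began a median of 51 bases after the stop codon, with a range of 8 to 139, and 12 members held more than 1 site.

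Total counts per library ran from 6694390 to 10663540. YFH1 itself stood at 9.03 to 12.7 CPM (counts scaled to a common library size) in H113N YFH1-off libraries, against 46.5 to 58.5 CPM in H113N libraries, and at 5.86 to 8.93 CPM in WT YFH1-off libraries, against 59.9 to 67.9 CPM in WT libraries. WT replicate 2 stood apart from the other WT libraries on the third principal component, at 25.3 against -11.9 to -6.27. Genes of chromosomes I and II were higher as a whole in all 4 H113N libraries. The median deviation of chromosome II genes from their own means over all libraries was 0.12 to 0.23 (log2) in H113N libraries and -0.081 to -0.021 in the other 12. The source of that shift was not tested, and 7 members lie on chromosome II and none on chromosome I. These are bulk cultures, in which fewer cells expressing a gene and less of its RNA per cell cannot be told apart.

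Per kilobase of coding sequence, the members' means over all 16 libraries had a median of 69.3 CPM. They ran from 33.0 to 168 CPM, a 5.10-fold range. MRP8 was the highest at 168 CPM per kilobase. MRPS12, a protein of the decoding centre, followed at 162 and MRPS16 at 134 CPM per kilobase. At the low end were MRPL24 at 37.6, MRPS8 at 34.3 and RSM22 at 33.0 CPM per kilobase.

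Turning YFH1 off lowered the transcripts of most members in WT cells. In the test over all genes, 50 of the 66 fell and 1 rose, MRP8, while 15 did not pass (edgeR quasi-likelihood test, Benjamini-Hochberg adjusted over 5876 genes at a threshold of 0.05). Of all tested genes, 49.5% were called in the same comparison, 25.0% lower and 24.5% higher. The members' median log2 fold change was -0.35, against 0.0087 over all tested genes. The decrease was shallow: the summed level of the 64 structural members was 2649.8 ± 86.6 CPM in WT YFH1-off libraries and 3369 ± 79.9 CPM in WT libraries (SD, n = 4 each), that is 78.6% of the level with YFH1 on. The YFH1-off sums ran from 2524 to 2719.7 CPM and the YFH1-on sums from 3273 to 3465 CPM, without overlap. In 47 members every WT YFH1-off library lay below every WT library, as in 21.4% of all tested genes. Without WT replicate 2, 52 members were called. With libraries scaled by their total count alone in place of TMM, a trimmed mean of ratios, 59 members were called lower and 1 higher, among 2087 genes called lower and 933 higher, where TMM gave 1469 and 1440.

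**Figure D1:**
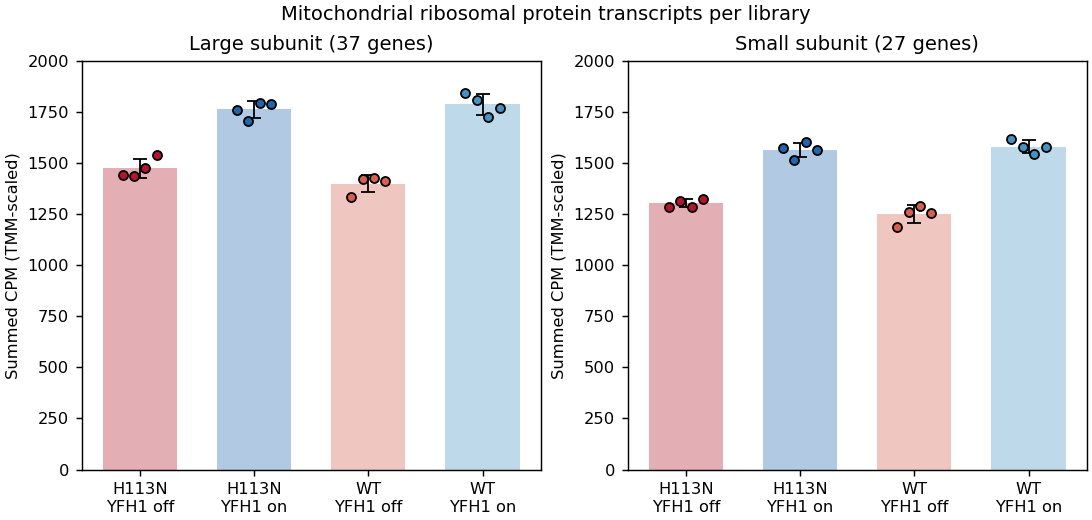
Summed CPM (TMM-scaled library sizes) of the 37 large-subunit and 27 small-subunit members in each library. Points are libraries, bars group means and whiskers the SD over 4 libraries. In both panels each YFH1-off library lies below all YFH1-on libraries of its genotype, and the bars of the YFH1-off groups stand at 78.3% to 83.6% of their YFH1-on counterparts.

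Both subunits took part. Of the 37 large-subunit members 30 fell and 7 did not pass, with a median log2 fold change of -0.36. Of the 27 small-subunit members 19 fell and 8 did not pass, with a median of -0.30. Both counts are for YFH1 shutoff in WT cells, where 25.0% of all tested genes were called lower. The large subunit's mean level per kilobase divided by the small subunit's was 0.874 ± 0.0050 in WT YFH1-off libraries and 0.916 ± 0.012 in WT libraries, and 0.895 ± 0.023 in H113N YFH1-off libraries and 0.897 ± 0.0099 in H113N libraries (SD, n = 4 each). The ratio did not overlap between the WT groups and overlapped between the H113N groups.

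Among the large-subunit members, MRPL51 (YPR100W, chromosome XVI), a protein with no bacterial counterpart, fell most. It had 29.9, 39.5, 37.8 and 34.3 CPM in WT YFH1-off libraries, against 64.3, 59.5, 56.6 and 55.0 CPM in WT libraries. All 4 shutoff libraries were below all 4 WT libraries, a log2 fold change of -0.74 ± 0.078 (SE; edgeR adjusted p = 6.00e-07). An open reading frame on the other strand, YPR099C, overlaps MRPL51 and drew 408 reads over all libraries, 6.64% of the 6148 of MRPL51. Whether reads were counted by strand is not given in the sources used here.

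MRPL50 (YNR022C, chromosome XIV), the counterpart of bacterial L9, had 24.0, 25.5, 26.1 and 21.0 CPM in WT YFH1-off libraries, against 41.9, 37.3, 36.8 and 40.1 CPM in WT libraries. The groups did not overlap, and the log2 fold change was -0.70 ± 0.079 (edgeR adjusted p = 1.37e-06). MRPL31 (YKL138C, chromosome XI), a mitochondria-specific protein, had 21.7, 26.5, 30.3 and 29.2 CPM with YFH1 off, against 42.7, 46.5, 40.9 and 37.8 CPM in WT libraries. All shutoff libraries were below all WT libraries, with a log2 fold change of -0.63 ± 0.088 (edgeR adjusted p = 1.47e-05).

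The small subunit gave 5 of the 8 largest falls. MRPS9 (YBR146W, chromosome II), whose bacterial relative reaches the P site, had 62.3, 53.3, 59.3 and 53.5 CPM in WT YFH1-off libraries, against 89.6, 90.2, 89.7 and 94.7 CPM in WT libraries. Its log2 fold change was -0.67 ± 0.066 with no overlap of the groups (edgeR adjusted p = 2.59e-07). MRPS35 (YGR165W), a protein specific to mitochondria, had 51.0, 46.3, 44.5 and 48.2 CPM with YFH1 off, against 73.6, 75.0, 67.5 and 74.1 CPM in WT libraries. RSM28 (YDR494W), a small-subunit protein linked to the start of translation, had 37.7, 41.6, 40.4 and 39.9 CPM with YFH1 off, against 60.0, 59.0, 55.3 and 62.2 CPM in WT libraries. Neither gene's groups overlapped, and the log2 fold changes were -0.61 ± 0.067 for MRPS35 and -0.57 ± 0.057 for RSM28 (edgeR adjusted p = 9.98e-07 and 3.15e-07). MRPS8 changed by -0.59 ± 0.095 and MRPS28 by -0.52 ± 0.064 on the same scale (edgeR adjusted p = 6.85e-05 and 3.19e-06), likewise without overlap. MRPS8 was among the 3 lowest members per kilobase, at 12.0, 12.3, 14.3 and 12.1 CPM in WT YFH1-off libraries, against 20.9, 18.8, 19.1 and 17.8 CPM in WT libraries.

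Landmark proteins of the ribosome followed with smaller falls. MRP7, the counterpart of bacterial L27 beside the peptidyl transferase centre, fell by 0.30 on the log2 scale, MRP20 at the exit of the peptide tunnel fell by 0.34, MRPL36 fell by 0.36 and MRPS5 fell by 0.25. MRPS12 also fell, with a log2 fold change of -0.26 ± 0.076 (edgeR adjusted p = 0.0085). RSM22 moved with the structural members, at 51.6, 56.8, 52.2 and 55.0 CPM in WT YFH1-off libraries, against 74.9, 74.5, 68.5 and 69.8 CPM in WT libraries, a log2 fold change of -0.42 ± 0.050 (edgeR adjusted p = 2.62e-06).

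MRP8 went the other way. It had 145, 157, 171 and 161 CPM in WT YFH1-off libraries, against 103, 70.6, 67.6 and 67.5 CPM in WT libraries. Every shutoff library was above every WT library, and the log2 fold change was 1.04 ± 0.12 (edgeR adjusted p = 2.27e-06). WT replicate 2 was well above the other WT libraries, and without it the log2 fold change was 1.21. RefSeq's note on MRP8 records induction of its transcript by cell wall stress.

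**Figure D2:**
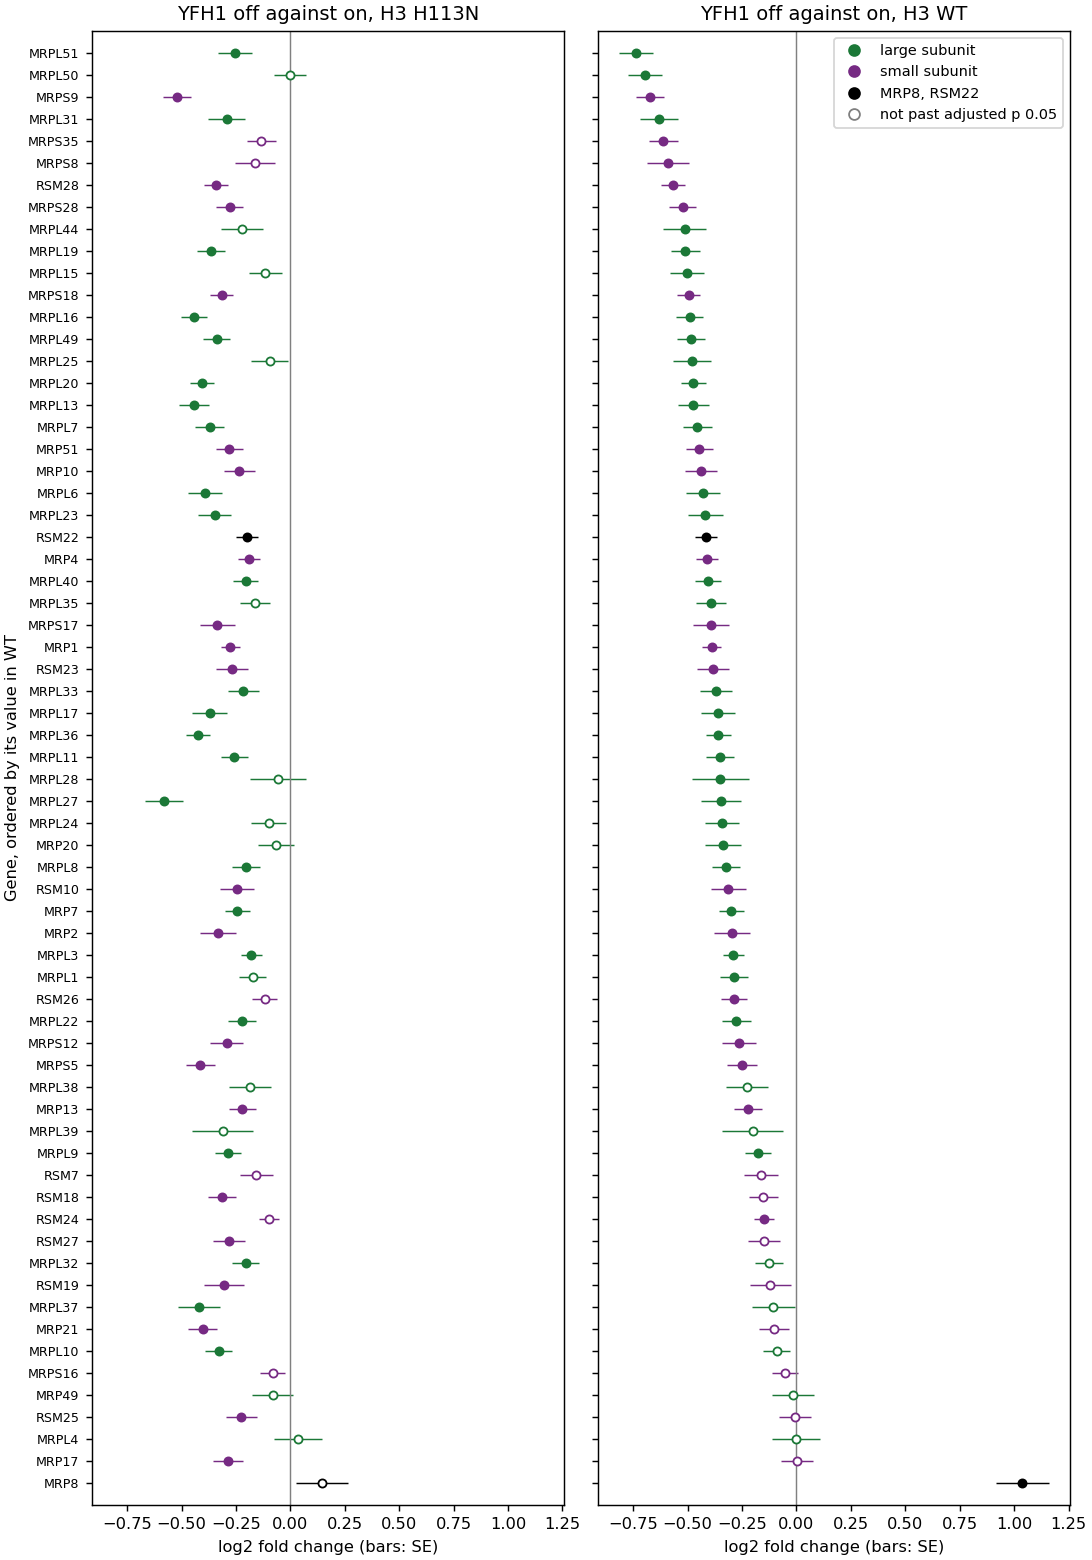
Log2 fold change of YFH1 off against on for each of the 66 members in H3 H113N cells (left) and H3 WT cells (right), with standard errors, ordered by the WT value. Filled points passed an adjusted p of 0.05. The left panel holds 46 called falls and the right panel 50, and MRP8 lies far from the others in the right panel, at 1.04.

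The proteins were also sorted by the origin encoded in their RefSeq names. Of 27 proteins shared by ribosomes of all domains of life 22 fell in WT cells, of 13 shared with bacteria 7 fell, and of 24 specific to mitochondria 20 fell. Their median log2 fold changes were -0.35, -0.30 and -0.39 in that order. In H113N cells 21, 9 and 15 of them fell, with medians of -0.29, -0.28 and -0.23. The order of the classes thus differed between the genotypes. Of all tested genes, 25.0% were called lower in WT cells and 8.73% in H113N cells. The classes were not tested against each other. The 15 members that did not pass in WT cells included MRPL4, a tunnel-exit protein. It had 40.9, 50.0, 52.3 and 49.9 CPM in WT YFH1-off libraries, against 49.3, 46.3, 45.9 and 52.3 CPM in WT libraries. MRP17, the counterpart of bacterial S6, had 22.6, 26.5, 27.6 and 28.0 CPM with YFH1 off, against 25.2, 27.8, 27.5 and 24.5 CPM in WT libraries. Both overlapped between the groups, with log2 fold changes of -0.0035 ± 0.11 and 0.0013 ± 0.073.

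In H113N cells YFH1 shutoff lowered nearly as many members. Of the 66, 46 fell, 0 rose and 20 did not pass (edgeR quasi-likelihood test, Benjamini-Hochberg adjusted over 5876 genes), where 8.73% of all tested genes were called lower and 11.8% higher. The median log2 fold change of the members was -0.26, against 0.023 over all tested genes. The summed level of the 64 structural members was 2778 ± 61.8 CPM in H113N YFH1-off libraries and 3328 ± 73.6 CPM in H113N libraries (SD, n = 4 each), or 83.5% of the level with YFH1 on. The shutoff sums ran from 2728 to 2868 CPM and those with YFH1 on from 3224 to 3397 CPM. With total count alone, 53 members were called lower and 0 higher, among 797 genes called lower and 472 higher, where TMM gave 513 and 696. In 45 members every shutoff library lay below every H113N library, as in 11.0% of all tested genes. By subunit, 24 of 37 large-subunit members and 21 of 27 small-subunit members fell.

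All 7 members on chromosome II were among the falls in H113N cells, with a median log2 fold change of -0.42, and 39 of the 59 on other chromosomes fell, with a median of -0.23. Over all tested genes of chromosome II the median in the same comparison was -0.17, the shift described above. MRPL27 (YBR282W), a mitochondria-specific large-subunit protein on chromosome II, fell most, at 24.0, 28.0, 28.3 and 27.2 CPM in H113N YFH1-off libraries, against 41.6, 38.7, 41.2 and 39.5 CPM in H113N libraries. The groups did not overlap, and the log2 fold change was -0.58 ± 0.087 (edgeR adjusted p = 0.00016). MRPS9 had 69.6, 61.7, 67.4 and 69.5 CPM with YFH1 off, against 103, 93.9, 86.4 and 102 CPM in H113N libraries, a log2 fold change of -0.52 ± 0.065 (edgeR adjusted p = 3.07e-05). MRPL16 and MRPL36, also on chromosome II, changed by -0.44 ± 0.060 and -0.42 ± 0.056 (edgeR adjusted p = 6.87e-05 and 5.56e-05).

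MRPL13 (YKR006C), a mitochondria-specific large-subunit protein on chromosome XI, was the member with the largest fall away from chromosome II. It had 54.6, 48.6, 57.7 and 56.3 CPM in H113N YFH1-off libraries, against 71.9, 75.2, 73.0 and 75.0 CPM in H113N libraries. Its groups did not overlap, with a log2 fold change of -0.44 ± 0.069 in H113N cells (edgeR adjusted p = 0.00024) and -0.47 ± 0.071 in WT cells. MRP7 and MRPS5 also fell in H113N cells, with log2 fold changes of -0.25 and -0.41, while MRP20 did not pass, at -0.066 ± 0.081.

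The members that fell in both genotypes numbered 37. Of those that fell in H113N cells 80.4% also fell in WT cells, beside 75.8% of all 66 members. Of those that fell in WT cells 74.0% also fell in H113N cells, beside 69.7% of all 66 members. The overlap was thus near what the number of falls in each genotype alone would give, and was not tested. There were 9 called lower in H113N cells and not in WT cells, 13 called lower in WT cells and not in H113N cells, and 6 called in neither. Such a split of calls is not a test of the difference, which is given further on. MRP8, called higher in WT cells, was not called in H113N cells. The fitted fold change was below 0 in 64 members in each genotype and in 63 members in both. Of the 37, the falls in WT cells ran from -0.74 (MRPL51) to -0.18 (MRPL9). The 13 were MRPL15, MRPL25, MRPL50, MRPS35 and MRPS8, in which the effects of YFH1 differed between the genotypes by the test given further on, and MRP20, MRPL1, MRPL24, MRPL28, MRPL35, MRPL44, RSM24 and RSM26, in which they were not shown to differ. The 9 were MRP17, MRP21 and MRPL10, in which the effects differed, and MRPL32, MRPL37, RSM18, RSM19, RSM25 and RSM27, in which they were not shown to differ. The 6 members called in neither were MRP49, MRPL38, MRPL39, MRPL4, MRPS16 and RSM7.

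**Figure D3:**
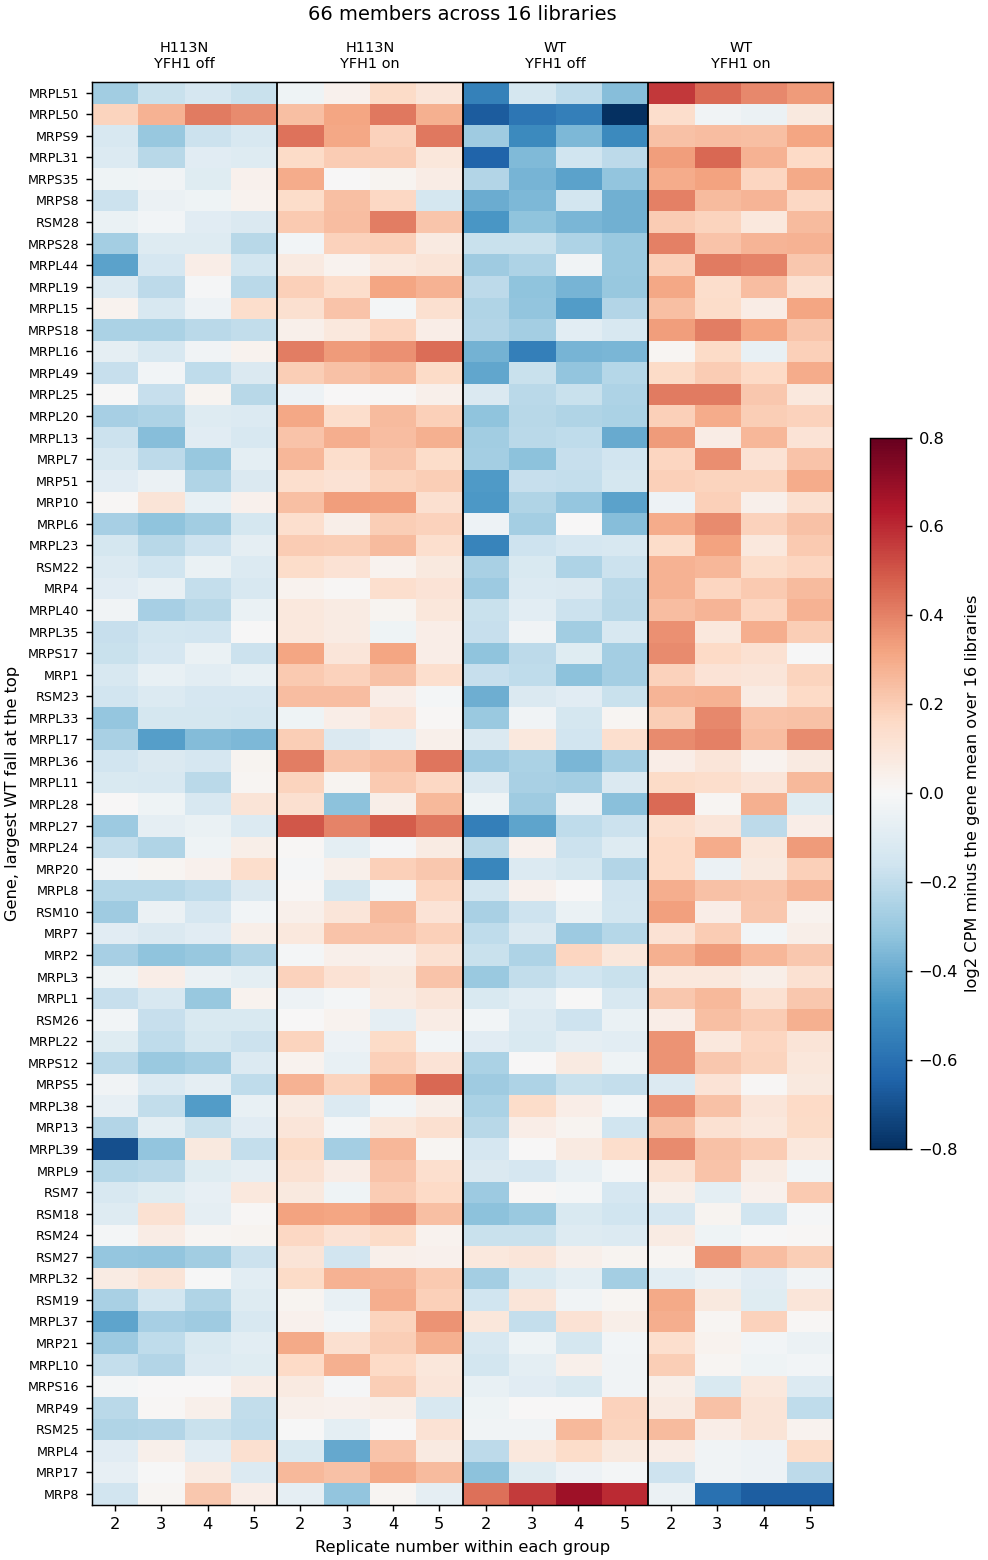
Log2 CPM of each member minus its own mean over the 16 libraries, with libraries in columns by group and members in rows ordered by their log2 fold change in WT cells. Blue is below and red above the gene's mean, and the colour scale ends at 0.8 on either side. The YFH1-off columns are blue over most rows in both genotypes, MRPL50 is red in all H113N and H113N YFH1-off libraries, and MRP8 is red in the WT YFH1-off libraries.

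Whether the H3 mutation changed the effect of YFH1 loss was tested directly, as the fold change in H113N cells minus that in WT cells. This difference passed in 15 members, 11 with a higher value and 4 with a lower value in H113N cells (edgeR quasi-likelihood test, Benjamini-Hochberg adjusted over 5876 genes), where 30.8% of all tested genes were called, 17.0% higher and 13.8% lower. The median difference was 0.069 over the members and 0.011 over all tested genes. With total count alone, 16 members were higher and 1 lower. The number of called members was 7 without WT YFH1-off replicate 5, and 9 without WT YFH1-off replicate 2 or 4, H113N replicate 2 or H113N YFH1-off replicate 4. YFH1 itself fell less in H113N cells, with log2 fold changes of -2.30 ± 0.11 there and -3.14 ± 0.12 in WT cells. By the same test these differed by 0.84 ± 0.17 (edgeR adjusted p = 0.0011), so the genotypes did not lose the YFH1 transcript equally. What this did to the members' differences was not tested.

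Among the members with a higher value in H113N cells, MRPL50 showed the largest difference. It had 43.1, 46.1, 50.8 and 49.4 CPM in H113N YFH1-off libraries, against 44.9, 47.4, 50.9 and 46.4 CPM in H113N libraries, which overlapped, where the WT groups stood apart. Its log2 fold change with YFH1 shutoff was -0.0013 ± 0.072 in H113N cells and -0.70 ± 0.079 in WT cells, a difference of 0.70 ± 0.11 (edgeR adjusted p = 9.46e-05). MRPL51 differed by 0.48 ± 0.11 and MRPS35 by 0.48 ± 0.094 (edgeR adjusted p = 0.0028 and 0.00089). MRPL51 had 35.8, 38.4, 39.6 and 38.4 CPM in H113N YFH1-off libraries, against 42.5, 44.4, 48.3 and 46.4 CPM in H113N libraries, and still fell there. MRPS35 had 58.6, 58.8, 56.1 and 61.4 CPM in H113N YFH1-off libraries, against 73.7, 60.1, 61.0 and 62.6 CPM in H113N libraries, and did not pass in H113N cells. The YFH1 effect on MRPS8 differed by 0.43 ± 0.13 and on MRPL15 by 0.39 ± 0.11 (edgeR adjusted p = 0.021 and 0.012), and the MRPS8 call was lost without WT YFH1-off replicate 2 or 5. MRPL15 had 36.5, 32.8, 34.7 and 39.5 CPM in H113N YFH1-off libraries, against 39.0, 41.8, 35.4 and 39.0 CPM in H113N libraries, which overlapped. In WT cells it had 30.3, 28.7, 26.2 and 30.4 CPM with YFH1 off, against 42.2, 39.6, 37.3 and 44.5 CPM with YFH1 on, which did not. The remaining members with a higher value in H113N cells were MRPL25, MRPL31, MRP4, MRPS28, RSM22 and RSM28, with differences of 0.22 to 0.38.

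The 4 members with a lower value in H113N cells were MRP8, MRP21, MRP17 and MRPL10. The difference for MRP8 was -0.89 ± 0.17 (edgeR adjusted p = 0.00072): it had 95.9, 108, 124 and 111 CPM in H113N YFH1-off libraries, against 101, 85.7, 108 and 101 CPM in H113N libraries, which overlapped. MRP21, the counterpart of bacterial S21, lies on chromosome II and differed by -0.30 ± 0.094 (edgeR adjusted p = 0.022). It had 23.0, 24.4, 25.8 and 26.5 CPM in H113N YFH1-off libraries, against 34.7, 30.7, 32.2 and 34.2 CPM in H113N libraries, where the genes of its chromosome were higher as a whole. MRP17 had 27.1, 28.3, 29.6 and 26.3 CPM in H113N YFH1-off libraries, against 33.9, 33.3, 34.9 and 33.8 CPM in H113N libraries, a fall without overlap. Its difference of -0.29 ± 0.10 lost its call in 11 of 16 fits that each left out 1 library, and that of MRPL10, -0.24 ± 0.088, in 12 of 16 (edgeR adjusted p = 0.039 and 0.049 with all libraries).

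With YFH1 on, members were called in both directions between H113N and WT cells, as were genes in general. In H113N against WT cells, 10 members (15.2%) were higher and 17 (25.8%) lower (edgeR quasi-likelihood test, Benjamini-Hochberg adjusted over 5876 genes). Of all tested genes, 23.0% were higher and 23.2% lower. In 8 members every H113N library lay above every WT library and in 15 below, against 18.9% and 18.2% of all tested genes. The median log2 fold change was -0.044 over the members and 0.0019 over all tested genes. The direction rested on the scaling of the libraries. With total count alone, 18 members were higher and 4 lower and the median was 0.029, among 1783 genes called higher and 913 lower, where TMM gave 1351 and 1365. The summed level of the 64 structural members, 3328 ± 73.6 CPM in H113N libraries and 3369 ± 79.9 CPM in WT libraries (SD, n = 4 each), overlapped between the groups.

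The higher calls were spread unevenly over the genome. Of the 7 members on chromosome II 5 were higher and 0 lower, with a median log2 fold change of 0.27, where all tested genes of that chromosome had a median of 0.21. Of the 59 on other chromosomes 5 were higher and 17 lower, with a median of -0.073. MRPL27 had 41.6, 38.7, 41.2 and 39.5 CPM in H113N libraries, against 32.2, 31.5, 25.5 and 30.6 CPM in WT libraries, a log2 fold change of 0.43 ± 0.087 without overlap (edgeR adjusted p = 0.00081). MRPL16, on the same chromosome, had 82.4, 78.6, 80.0 and 84.6 CPM in H113N libraries, against 62.6, 68.9, 59.5 and 70.9 CPM in WT libraries, a log2 fold change of 0.31 ± 0.060 without overlap (edgeR adjusted p = 0.00046).

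**Figure D4:**
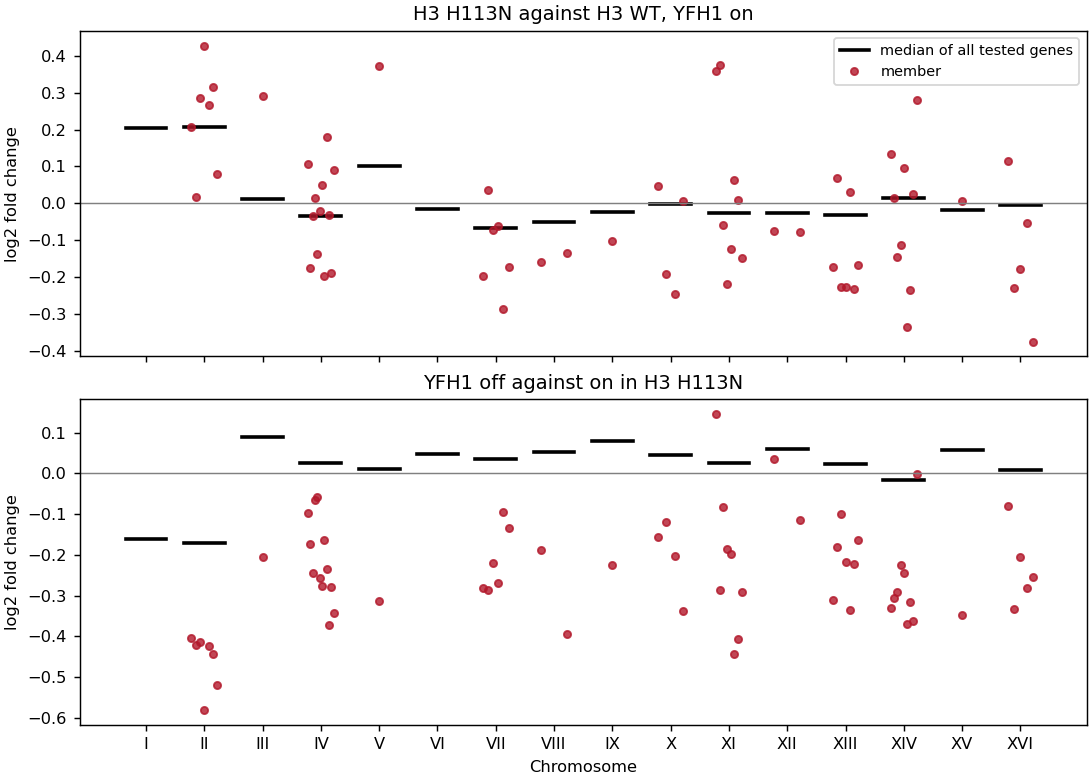
Log2 fold changes of the 66 members by chromosome (points) with the median of all tested genes of each nuclear chromosome (bars), for H113N cells set against WT cells that kept YFH1 on (top) and for YFH1 off against on in H113N cells (bottom). All 7 members on chromosome II lie above 0 in the top panel and, in the bottom panel, below the chromosome's own median of -0.17.

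Away from chromosome II, the largest higher values belonged to small-subunit proteins. MRP17 had 33.9, 33.3, 34.9 and 33.8 CPM in H113N libraries, against 25.2, 27.8, 27.5 and 24.5 CPM in WT libraries, a log2 fold change of 0.37 ± 0.071 (edgeR adjusted p = 0.00042). RSM18, the counterpart of bacterial S18, which binds next to S6 in bacterial ribosomes, had 66.6, 66.3, 67.8 and 63.2 CPM in H113N libraries, against 48.6, 54.3, 47.8 and 53.1 CPM in WT libraries, a log2 fold change of 0.37 ± 0.064 (edgeR adjusted p = 0.00016). Neither gene's groups overlapped. MRP8 was called higher at 0.36 ± 0.12 (edgeR adjusted p = 0.025), a call lost in 6 of 16 fits that each left out 1 library. The lower members were led by MRPL51 at -0.37 ± 0.075, followed by MRPL17 at -0.33 ± 0.078, MRPL25 at -0.29, MRPL8 at -0.25 and MRPS18 at -0.24. The reading frame overlapping MRPL51 on the other strand had a log2 fold change of 1.94 in this comparison, the opposite direction to MRPL51.

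With YFH1 off, 17 members were higher and 6 lower in H113N than in WT cells (edgeR quasi-likelihood test, Benjamini-Hochberg adjusted over 5876 genes), beside 27.2% and 25.2% of all tested genes. The median was 0.068 over the members and 0.0055 over all tested genes. In 14 members every H113N YFH1-off library lay above every WT YFH1-off library and in 4 below, against 27.6% and 26.0% of all tested genes. With total count alone, 36 members were higher and 4 lower, among 2295 genes called higher and 811 lower, where TMM gave 1599 and 1479. MRPL50 had 43.1, 46.1, 50.8 and 49.4 CPM in H113N YFH1-off libraries, against 24.0, 25.5, 26.1 and 21.0 CPM in WT YFH1-off libraries, a log2 fold change of 0.97 ± 0.077 and the largest of any member (edgeR adjusted p = 2.28e-08). MRP10, a small twin-cysteine protein of the small subunit, had 25.7, 27.4, 24.5 and 26.2 CPM in H113N YFH1-off libraries, against 18.6, 21.6, 20.6 and 18.9 CPM in WT YFH1-off libraries, a log2 fold change of 0.38 ± 0.074 without overlap. After it came MRPL16 at 0.36, RSM28 at 0.32 and MRPL15 at 0.31. MRP8 was lower, at -0.53 ± 0.12, with 95.9, 108, 124 and 111 CPM in H113N YFH1-off libraries, against 145, 157, 171 and 161 CPM in WT YFH1-off libraries. MRPL17, RSM27, RSM25 and MRPL37 were also lower, with log2 fold changes of -0.34, -0.33, -0.32 and -0.30. RSM25 had 30.7, 30.8, 32.0 and 31.5 CPM in H113N YFH1-off libraries, against 35.6, 35.6, 43.4 and 41.0 CPM in WT YFH1-off libraries, without overlap. MRPL17 was lower in H113N cells whether YFH1 was off or on: it had 33.0, 29.1, 31.0 and 30.7 CPM in H113N YFH1-off libraries, against 36.5, 41.9, 35.5 and 43.4 CPM in WT YFH1-off libraries. The comparisons above share libraries, so the values of a member in them are not independent.

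The rest of the mitochondrial translation system was read from lists of genes outside the name rule. Of 14 other mitochondrial ribosomal proteins 13 could be tested, and 10 fell with YFH1 shutoff in H113N cells and all 13 in WT cells, with median log2 fold changes of -0.26 in H113N cells and -0.30 in WT cells. Of all tested genes, 8.73% were called lower in H113N cells and 25.0% in WT cells. NAM9, a small-subunit protein, had a log2 fold change of -0.26 ± 0.054 in H113N cells and -0.54 ± 0.055 in WT cells. PET123 stood at -0.26 ± 0.091 in H113N cells and -0.55 ± 0.093 in WT cells, and MNP1, the counterpart of bacterial L7/L12, at -0.32 ± 0.047 in H113N cells and -0.33 ± 0.048 in WT cells. The largest falls of this list were FYV4 in H113N cells, at -0.48, and PET123 in WT cells. VAR1 drew 0 to 12 reads per library, in libraries made from polyadenylated RNA, and was not tested.

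Of 9 translation factors, 2 fell in H113N cells, and 6 fell and 1 rose in WT cells. Of all tested genes, 8.73% fell and 11.8% rose in H113N cells, and 25.0% fell and 24.5% rose in WT cells. The difference between the effects passed in 4 of the 9 factors, all higher in H113N cells, where 17.0% of all tested genes were called higher. MEF1, an elongation factor, had a log2 fold change of -0.24 ± 0.071 in H113N cells and -0.77 ± 0.073 in WT cells, where it stood at 60.1 to 67.4 CPM in WT YFH1-off libraries, against 95.3 to 125 CPM in WT libraries. TUF1, another elongation factor, stood at -0.21 ± 0.058 in H113N cells and -0.66 ± 0.058 in WT cells. The largest fall in WT cells was that of MEF2, at -1.04 ± 0.19. MEF2 stood at 15.9 to 18.8 CPM in WT YFH1-off libraries, against 26.3 to 56.9 CPM in WT libraries. Its mean in WT libraries was 36.0 ± 14.1 CPM (SD, n = 4), so the size and rank of this fall leaned on its highest WT library. The factor that rose in WT cells was IFM1, the initiation factor, at 0.23 ± 0.069. Of 14 mitochondrial aminoacyl-tRNA synthetases 0 fell and 1 rose in H113N cells, MSR1 at 0.31, and 8 fell in WT cells, led by MST1 at -0.56.

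Translational activators, which recruit single mitochondrial messages to the ribosome, fell in 4 of 17 cases and rose in 1 in H113N cells, and fell in 10 and rose in 3 in WT cells. CBP6, which acts on the cytochrome b message, led the falls at -0.91 ± 0.14 in H113N cells and -1.56 ± 0.16 in WT cells. PET122, an activator of COX3 translation, rose in both, by 0.56 in H113N cells and 0.54 in WT cells. Of 10 genes of ribosome assembly and rRNA modification 2 fell in H113N cells and 6 in WT cells, led in both by MSS116, an RNA helicase, at -0.34 in H113N cells and -0.58 in WT cells. YTA12 and AFG3, which form the protease that matures MRPL32, fell in WT cells, with log2 fold changes of -0.31 and -0.19. The shares over all tested genes were 8.73% lower and 11.8% higher in H113N cells, and 25.0% lower and 24.5% higher in WT cells.

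Nuclear subunits of the respiratory chain gave larger falls. Of 22, 21 fell in H113N cells, with a median log2 fold change of -0.83, and all 22 fell in WT cells, with a median of -2.44. Their summed level with YFH1 off was 56.9% of that with YFH1 on in H113N cells and 24.0% in WT cells. Some of these genes were widely spread over the WT libraries. SDH1 had a mean of 88.2 ± 54.2 CPM there (SD, n = 4), from 53.8 to 169 CPM, and COR1 ran from 288 to 442 CPM. Others were spread less, such as COX12 at 36.8 to 45.1 CPM. The 24.0% may thus lean in part on the highest WT values. COR1 still stood at 57.7 to 63.7 CPM in WT YFH1-off libraries, below all its WT values. The 64 structural members stood at 83.5% in H113N cells and 78.6% in WT cells. The difference between the YFH1 effects passed in 20 of 22 respiratory genes, all higher in H113N cells, and in 15 of 66 members. It passed in 30.8% of all tested genes, 17.0% higher and 13.8% lower in H113N cells. Of the 137 cytosolic ribosomal protein genes, 11 (8.03%) rose and 3 fell in H113N cells, with a median of 0.094, where 11.8% of all tested genes rose. In WT cells 59 of them (43.1%) rose and 4 fell, with a median of 0.12, where 24.5% of all tested genes rose. Falls were called in 8.73% of all tested genes in H113N cells and in 25.0% in WT cells. No test compared the groups of genes with each other.

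**Figure D5:**
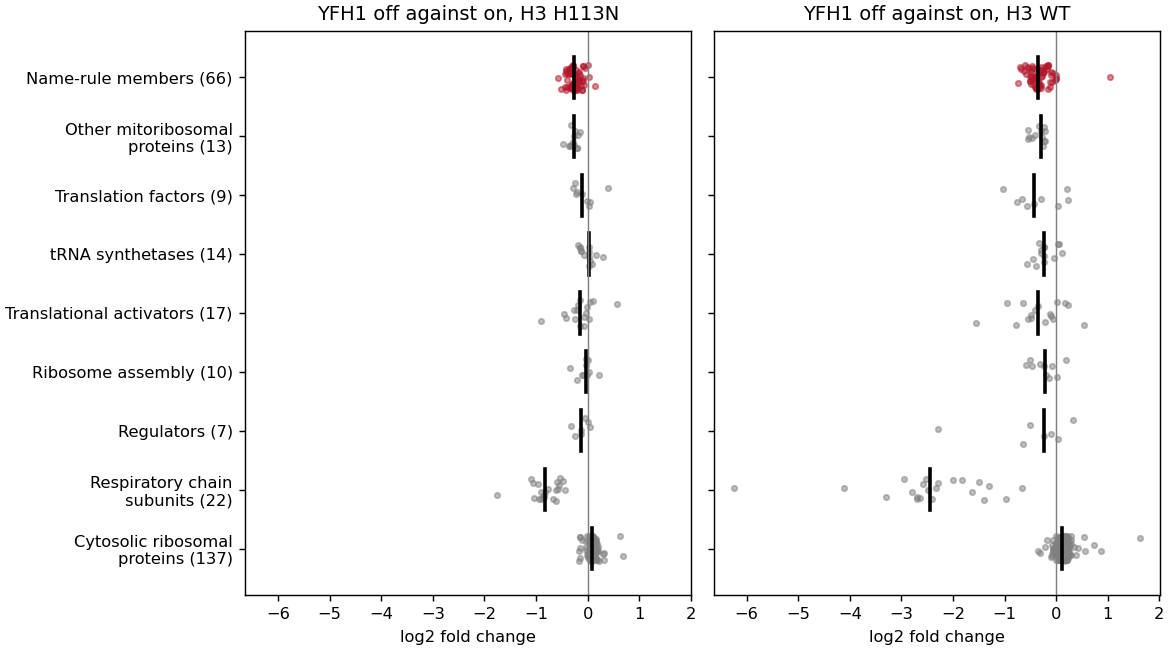
Log2 fold change of YFH1 off against on for genes of the mitochondrial translation system, the respiratory chain and the cytosolic ribosome in H3 H113N cells (left) and H3 WT cells (right). Points are genes, with the number tested beside each name, and vertical bars are medians. The name-rule members have medians of -0.26 (H113N) and -0.35 (WT), and the respiratory chain genes medians of -0.83 (H113N) and -2.44 (WT).

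Of 7 genes for regulators of these genes and of mitochondrial transcription, 1 fell in H113N cells and 3 in WT cells. Among all tested genes 8.73% fell in H113N cells and 25.0% in WT cells. HAP4 stood at 71.0 to 81.1 CPM in H113N YFH1-off libraries, against 67.6 to 83.5 CPM in H113N libraries, and did not pass there, at -0.045 ± 0.076. In WT cells it stood at 18.5 to 22.1 CPM with YFH1 off, against 89.3 to 110.3 CPM with YFH1 on, a log2 fold change of -2.29 ± 0.086 (edgeR adjusted p = 1.38e-12). The effects differed by 2.25 ± 0.11 (edgeR adjusted p = 3.49e-10). PUF3 did not pass in either genotype, at -0.13 ± 0.060 in H113N cells and 0.035 ± 0.060 in WT cells, and it was lower in H113N than in WT cells with YFH1 off, at -0.24 ± 0.060 (edgeR adjusted p = 0.0037). RPO41, the mitochondrial RNA polymerase, fell in both genotypes, with log2 fold changes of -0.24 in H113N cells and -0.51 in WT cells.

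The Puf3 letters were also found in most genes of the lists of the mitochondrial translation system. They stood after 13 of 14 other mitochondrial ribosomal protein genes, 14 of 14 synthetase genes, 7 of 9 translation factor genes, 13 of 17 activator genes and 8 of 10 assembly genes. They stood after 2 of 22 respiratory chain genes and 4 of 137 cytosolic ribosomal protein genes. The 675 tested genes outside the members that hold the letters had median log2 fold changes with YFH1 shutoff of -0.028 in H113N cells and -0.089 in WT cells, and those without them 0.029 in H113N cells and 0.026 in WT cells. Members with TGTAAATA, TGTATATA and TGTACATA cores had medians of -0.29, -0.21 and -0.27 in H113N cells and of -0.35, -0.35 and -0.38 in WT cells. In the 300 bases before the start codon, on either strand, CCAAT, the letters of the Hap site, stood in 24 members (36.4%), against 41.8% of other genes. AATTTT, letters common before genes of cytosolic ribosome production, stood in 26 members (39.4%), against 54.3% of other genes. Members with CCAAT had a median of -0.30 in WT cells and those without it -0.39.

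Over the 16 libraries the levels of most members varied together. The median correlation of a member's log2 CPM with the mean of the other members was 0.80, with 57 members over 0.5 and 1 below 0. The genes outside the name rule most like the members' mean pattern were YFH1 itself (Pearson r = 0.98), MIC27, of the complex that shapes inner-membrane folds (0.97), and ATP2, a subunit of the ATP synthase (0.97). These correlations run over libraries that fall into 4 groups and share them, and none of the 3 genes holds the Puf3 letters in the window searched. In the authors' deposited table, 45 members had an adjusted p under 0.05 for YFH1 off against on in H113N cells, 50 in WT cells, 21 between H113N and WT cells that kept YFH1 on and 18 once it was off, and every one of them was also called here.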

How the data were processed

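RNA-seq was deposited for 16 yeast libraries. Per the submitters' processing notes, FastQC, cutadapt, HISAT2, featureCounts and DESeq2 were used with the sacCer3 build; versions, annotation and strand setting are not given in the sources used here. The authors deposited raw counts per gene and a table of normalized counts, a signal scaled by size factors, with adjusted p-values of their own. The second table gave gene names and the deposited p-values, and 0 columns were left unassigned. Every test used the deposited counts.

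The software was R 4.3.3, edgeR 4.0.16 and limma 3.58.1. After filterByExpr, which kept 5876 genes, and TMM scaling, edgeR's quasi-likelihood model was fitted once over the 16 libraries, with a mean for each of the 4 groups. The 5 contrasts were adjusted by Benjamini-Hochberg, with a threshold of 0.05. SE is the log2 fold change over the square root of F. CPM uses TMM-scaled sizes. All 24 pairs of libraries of 1 group differed beyond sampling noise (chi-square per degree of freedom 2.91 to 74.7). RefSeq R64, the same build as sacCer3, gave annotation for 6005 genes, products and sequence. Alternatives were library size only, DESeq2 1.42.0 with its scaling, other filters (none, or 10 counts in each library), only the groups compared, a replicate block and leaving out each library. No member holds a 50-base word repeated elsewhere in the genome. The fit was tested on simulated data.

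The members and lists were chosen with earlier results of these data known, so agreement with those results is no independent support. Named members are the 8 largest rises and 8 largest falls past the threshold in WT shutoff and the 5 largest of each in the other contrasts, among members whose log2 CPM averaged 3 or more, plus MRP8, RSM22, MRP7, MRP20, MRPL36, MRPS5 and the 3 highest and 3 lowest per kilobase; further members shown with their site were chosen after their values were seen.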

Additional observations from a re-analysis of the deposited data

Results flagged for a closer look

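In 6 members, 1 library of a group lay far from the other 3, of 84 groups of 4 libraries tested for single members and for the summed levels; chance flags about 1 in 20 groups. MRP8 had 103 CPM in WT replicate 2, above the other WT libraries. MRPS9 had 94.7 CPM in WT replicate 5, MRPL31 had 29.0 CPM in H113N YFH1-off replicate 3, MRPS8 had 14.3 CPM in WT YFH1-off replicate 4, RSM28 had 69.1 CPM in H113N replicate 4 and MRPL16 had 42.5 CPM in WT YFH1-off replicate 3.

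The effect of YFH1 shutoff differed between H113N and WT cells, by the edgeR test of the difference itself, in 15 of the 66 members. By the same test 30.8% of all tested genes were called, 17.0% higher and 13.8% lower. The log2 difference, H113N minus WT, was 0.70 for MRPL50, 0.48 for MRPL51, 0.48 for MRPS35, 0.43 for MRPS8, 0.39 for MRPL15, 0.38 for MRPL25, 0.34 for MRPL31, 0.24 for MRPS28, 0.22 for RSM28, 0.22 for MRP4 and 0.22 for RSM22. It was -0.89 for MRP8, -0.30 for MRP21, -0.29 for MRP17 and -0.24 for MRPL10. Outside the members it was 2.25 for HAP4 and 0.84 for YFH1 itself. MRPL50 kept its call in every one of 16 fits that each left out 1 library, at 0.61 to 0.74, and MRPL10 lost it in 12.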

How the results depend on the processing

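No result of a named member changed direction with its call under the alternatives run. Of 43 such results, 5 were weaker with total count alone, and 1 to 3 were weaker with any 1 library left out. The lower value of MRPL37 in H113N against WT cells with YFH1 off was among them, weaker in 3 of 16 fits that each left out 1 library. The balance of member calls for H113N against WT with YFH1 on did change direction. It was 10 higher and 17 lower with TMM, and 18 higher and 4 lower with total count alone. Called members with each library left out in turn numbered 37 to 47 for YFH1 shutoff in H113N cells, 50 to 52 in WT cells, 18 to 28 for H113N against WT with YFH1 on, 20 to 24 with YFH1 off and 7 to 15 for the difference between the YFH1 effects. With total count alone, 40 members were called for H113N against WT with YFH1 off, where 23 were called with TMM, and the members' median for H113N against WT with YFH1 on was 0.029 where it was -0.044 with TMM. That scaling moved the median of all genes by -0.061 (log2) in H113N shutoff, -0.12 in WT shutoff, and 0.073 and 0.13 for H113N against WT with YFH1 on and off. The replicate numbers did not pair the libraries: the correlations of deviations between same-numbered libraries ran from -0.20 to 0.23, and 5 of 16 libraries correlated best with their own number. With the number as a replicate block, 46, 51, 27, 24 and 11 members were called in H113N shutoff, in WT shutoff, for H113N against WT with YFH1 on and off, and for the difference. Without MRP8 and RSM22, chosen after seeing the data, 45 members were called in H113N shutoff and 49 in WT shutoff. Without the 7 on chromosome II, likewise chosen, 39 were called in H113N shutoff and 46 in WT shutoff. The error of a member set which folds could be called: MRPL39, at a mean of 19.3 CPM, was not called in H113N shutoff at -0.31 ± 0.14, while MRPL3, at 64.9 CPM, was called at -0.18 ± 0.048. VAR1, outside the members, drew 0 to 12 reads and was not tested.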
